A study of Drosophila melanogaster with 2 samples.

Results

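Ugalt, CG14100, PNPase and CG11050 are 4 of the 13945 protein-coding genes on the chromosome arms of Drosophila melanogaster. They were chosen by the peak signal of the pooled thresholded list, because each holds 1 of its 10 highest values, so their signals and ranks are given as a description and were not tested. Every summit within 2 kb of an annotated transcription start site (TSS) of these genes, or inside their bodies, was then collected from the peak lists. The 4 genes held 5 of the 4495 peaks of that list, and 29 of the 137752 peaks of the longer list that the authors ranked. The other holders of the 10 highest values enter only where a value is set beside them.

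The study mapped a tagged DNA-associated protein by chromatin immunoprecipitation and sequencing (ChIP-seq), in which chromatin is sheared, precipitated with an antibody and sequenced, so that places rich in fragments appear as peaks. The only group was whole embryos collected at 0 to 24 h from the strain CG11247-GFP, a transgenic line with an insertion that targets CG11247. These flies make CG11247 fused to eGFP (enhanced green fluorescent protein), and the labels differ on the antibody: the description of the samples names an antibody to GFP, which is followed here, and the antibody field names CG11247. The group had 2 biological replicates with 1 library each, and both replicates carry the same donor label. Both replicates hold the tagged protein, so no sample without it enters any comparison. The control experiment that the labels name was not analysed here, and a peak of the tagged protein therefore cannot be told apart from a place that is precipitated whatever the antibody. Whole embryos pool all tissues and stages of that day, so the lists do not say in which cells a peak arose.

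CG11247 belongs to the C2H2 zinc finger proteins, many of which bind DNA at promoters through a row of zinc-bound loops. Ugalt encodes the transporter that carries UDP-galactose into the Golgi, where galactose is added to proteins and lipids. PNPase encodes polynucleotide phosphorylase, an exonuclease that degrades RNA from its 3′ end and acts in mitochondria, and CG14100 and CG11050 are named by number only in the annotation used.

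The sequence below the strongest peaks is shown first, since the position of each peak against its gene sets the 4 apart. Printed are the stretches of the peaks, or of the gap or intron that holds the peak, that lie outside annotated exons, read on the strand of the gene in 5′ to 3′ direction, from the RefSeq genome of the dm6 assembly. Capitals mark the longest runs of bases that a pair of members shared within 100 bp of their summits, and their 10-base partial repeat in CG14100. The Ugalt stretch is chrX:2703853-2704056 on the minus strand, from the end of the peak to the base before the gene. The CG14100 stretch is chr3L:19590525-19590772 on the minus strand, the whole gap between that gene and its neighbour ash1. The PNPase stretches are chr3R:31404741-31404813 and chr3R:31404605-31404652 on the minus strand, the part of the peak before the first exon of transcript FBtr0085812 and the short intron after that exon. The CG11050 stretch is chr2L:6612641-6612780 on the plus strand, the whole of intron 2.
Ugalt: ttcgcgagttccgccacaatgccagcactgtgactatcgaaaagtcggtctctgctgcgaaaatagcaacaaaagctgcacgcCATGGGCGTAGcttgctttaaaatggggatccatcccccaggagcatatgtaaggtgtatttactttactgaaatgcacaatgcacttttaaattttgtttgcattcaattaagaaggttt
CG14100: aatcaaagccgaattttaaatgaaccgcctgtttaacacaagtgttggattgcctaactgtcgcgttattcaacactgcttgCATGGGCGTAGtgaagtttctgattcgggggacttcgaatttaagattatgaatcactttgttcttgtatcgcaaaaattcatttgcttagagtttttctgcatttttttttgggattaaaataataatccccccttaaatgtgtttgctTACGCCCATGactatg
PNPase, before the exon: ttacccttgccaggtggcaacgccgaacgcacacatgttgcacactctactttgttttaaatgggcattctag
PNPase, intron: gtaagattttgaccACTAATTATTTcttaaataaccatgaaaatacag
CG11050: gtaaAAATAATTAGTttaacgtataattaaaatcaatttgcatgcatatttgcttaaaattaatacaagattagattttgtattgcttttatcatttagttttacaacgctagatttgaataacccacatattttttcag

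The Ugalt and CG14100 peaks held CATGGGCGTAG, a run of 11 bases, once each on the strand of the gene and at nearly the same distance from the pooled summit. It lay 76 to 66 bp upstream of that summit in Ugalt and 78 to 68 bp upstream in CG14100. From the nearest TSS the run was 111 bp away in Ugalt and 156 bp in CG14100. The CG14100 summit was 88 bp upstream of the TSS in the pooled list and 105 bp in replicate 2, so there the distances from the summits were less alike. In CG14100 a run of 10 bases, TACGCCCATG, returned in the opposite direction 72 to 81 bp downstream of the summit, so that the summit lay between both copies. The 11 bases were found, on either strand, within 100 bp of 8 of the 4472 other passing summits on the arms (0.179%), of 23 of the 129786 ranked summits that did not pass (0.0177%) and of 2 of 8944 windows centred 500 bp to each side of the other passing summits (0.0224%). The run was picked because these peaks share it, so these shares describe how rare it is and were not tested.

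The PNPase and CG11050 peaks also shared a run of 11 bases. It read ACTAATTATTT in PNPase, 16 to 26 bp downstream of the summit, and AAATAATTAGT in CG11050, 68 to 58 bp upstream of it, which is the reverse complement. It occurred in 0.0894% of other passing summits, 0.0193% of the ranked summits that did not pass and 0.0671% of the flanking windows. The other 4 pairs of members shared runs of 7 to 9 bases. No word of 8 bases was found in 3 or 4 members, and 3 words of 7 bases were, each in 3 of the 4. AAATAAT was in CG14100, PNPase and CG11050, and was also at 17.1% of other passing summits and in 11.3% of flanking windows. ATTTTAA was in Ugalt, CG14100 and CG11050, with shares of 17% and 10.5%. ATGCAAA was in the same 3 members, with shares of 7.36% and 8.06%, so it was no more frequent at other summits than beside them.

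Few known promoter motifs were present at these summits. Of 14 words sought on either strand in the 100 bp to each side, 12 were in no member. Among them were the DRE (TATCGATA), found at 3.89% of other passing summits, the core of Motif 1 (GGTCACAC), 2.1%, TATAAA, 28.6%, GAGAG, 24.3%, and the 4 CTCF words, at most 1.61% each. CG14100 held CGATA, the BEAF-32 word, 7 to 11 bp from the summit in genome direction, a word present at 29.1% of other passing summits, 19.5% of those that did not pass and 21.9% of flanking windows. Ugalt held GCCAT, the core of the Pho site, 74 to 78 bp from its summit, where the shares were 31%, 42.2% and 33.4%. In Ugalt, GCCAT overlapped the shared run of 11 bases by 3 bases. A match describes the letters and says nothing of the named factor.

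The share of G and C bases at the strongest summit of each member was below the average of its flanks, as it was in the medians of other passing peaks. Within 50 bp of the summit the share of G and C was 35.6% in Ugalt, 26.7% in CG14100, 34.7% in PNPase and 20.8% in CG11050. Equally wide windows 500 bp to the left and right, in genome direction, held 57.4% and 33.7% in Ugalt and 56.4% and 34.7% in CG14100. They held 58.4% and 45.5% in PNPase and 21.8% and 66.3% in CG11050. The flanks were thus unequal, and the poorer one was below the summit in Ugalt and 1 percentage point above it in CG11050. The median over other passing peaks was 37.6%, beside 43.6% for the average of their flanks. Over the 500 strongest of them the median was 30.7%, beside 44.6% for the flanks. A lower share at the summit than in the flanks was therefore not particular to the members. CG11050 had the lowest value, and 2.35% of the other passing peaks were below it, whereas Ugalt and PNPase were near the median.

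**Figure D1:**
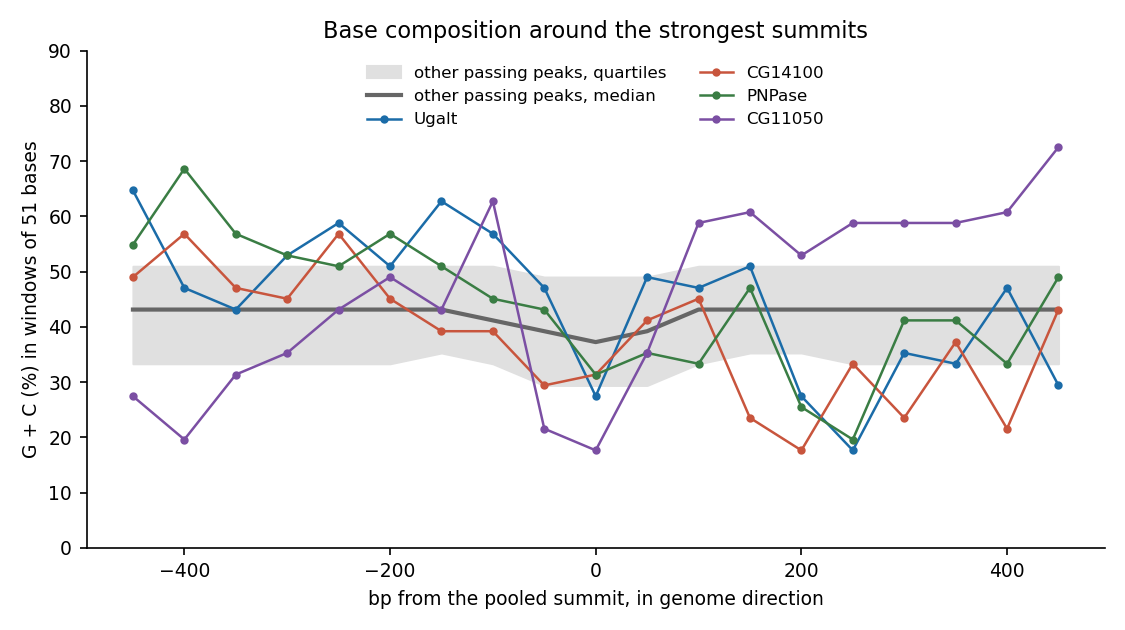
Share of G and C bases (%, y axis) in windows of 51 bases by distance from the pooled summit (bp, x axis, in genome direction) for the 4 members, with the median and quartiles of the other passing peaks. The lowest window is at the summit only in CG11050, at 17.65%, and is 17.65% at 250 bp in Ugalt, 17.65% at 200 bp in CG14100 and 19.61% at 250 bp in PNPase.

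The signals themselves chose the members. The signal of a peak is the score that the authors' caller gave it. It grows with the number of reads, so it is read only within a list, where rank 1 is the highest. The Ugalt peak (X, 2703703 to 2704056) had a signal of 2617 in the pooled list, rank 1, with 1467 in replicate 1, rank 2, and 1149 in replicate 2, rank 1. The CG14100 peak (3L, 19590447 to 19590781) had 2597 in the pooled list, rank 2, with 1479 in replicate 1, rank 1, and 1123 in replicate 2, rank 3. Both led the list in a replicate, so the order of these neighbours changed between replicates.

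The CG11050 peak (2L, 6612535 to 6612900) had a pooled signal of 2483, rank 3, with 1426 in replicate 1, rank 3, and 1031 in replicate 2, rank 4. The PNPase peak (3R, 31404499 to 31404813) had a pooled signal of 1598, rank 10, with 886.3 in replicate 1, rank 11, and 708.2 in replicate 2, rank 9. PNPase was the lowest of the 4 in every list, and the other members kept to the first 4 ranks. All 4 peaks passed in both replicates and in the list ranked on the true replicates, and all had the highest −log10 of the irreproducible discovery rate (IDR) that the ranked lists reach, 5. That value was shared by 445 peaks of the pooled ranked list and 363 of the list ranked on the true replicates. In replicates 1 and 2 it was shared by 760 and 421 ranked peaks. The IDR measures how far the rank of a peak repeats between a pair of inputs, and a peak is called passing here when it is in a thresholded list, which means that its −log10 IDR reaches 2.

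**Figure D2:**
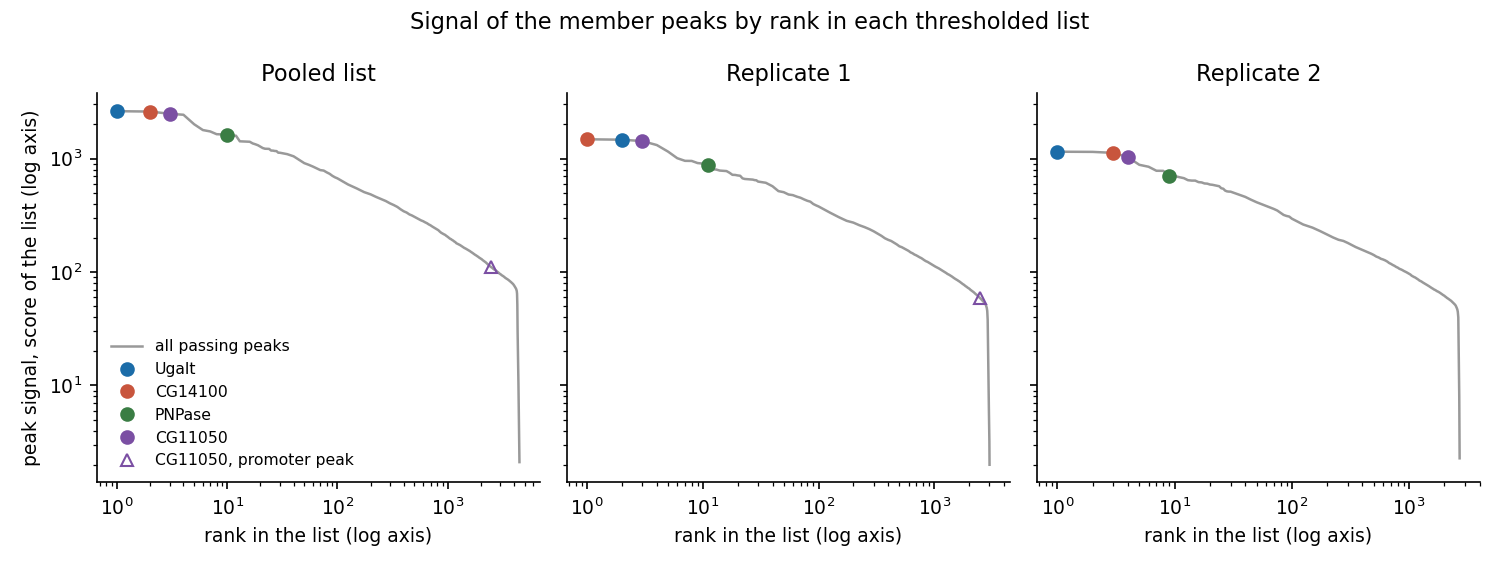
Peak signal (score of each list, log axis) against rank in the list (log axis) for the pooled list and for each replicate, with all passing peaks as a grey line. The filled points of Ugalt, CG14100 and CG11050 stand within the first 4 ranks of every list and PNPase at ranks 9 to 11. The open triangle is the promoter peak of CG11050, at rank 2504 of the pooled list. This peak was ranked but did not pass in replicate 2, so that panel lacks it.

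The limit of 10 peaks ran through a near tie. PNPase had a signal of 1597.8 at rank 10, and the peak upstream of mRpS10, which encodes a protein of the small mitochondrial ribosomal subunit, had 1597.6 at rank 11. On the inner side the peak of CenG1A stood at 1631, and on the outer side the peak of eIF6, a factor of ribosome assembly, stood at 1590. The longer ranked list held 2 peaks with signals of 2090 and 1626 and a −log10 IDR of 5 that the thresholded list lacks, and with them PNPase had rank 12. Of the 10 highest peaks, 6 belong to other genes, among them mRpL41 (2434), CG7601 (2008) and Tcs5 (1784).

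Replicate 1 had the higher signal at all 4 peaks. The ratio of replicate 1 to replicate 2 was 1.28 at Ugalt, 1.32 at CG14100, 1.25 at PNPase and 1.38 at CG11050, or 0.35, 0.40, 0.32 and 0.47 on the log2 scale. Of the 4093 passing peaks of the list ranked on the true replicates, 3744 were matched to a ranked peak in both replicates. The matched peaks need not pass in a replicate. Over these 3744 the median ratio was 1.13. Over the strongest 10% of them, 374 peaks, it was 1.27, with quartiles of 0.17 and 0.55 on the log2 scale. All 4 ratios lay between these quartiles.

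By the signals of both replicates, Ugalt and CG14100 were nearest to each other among the passing peaks of the list ranked on the true replicates. Their distance in log2 signal was 0.0363, and the next after them were CG11050 and mRpL41. For PNPase the nearest peak was that of mRpS10, at a distance of 0.0303, followed by CenG1A (0.118) and CG5611 (0.129). The distance rests on 2 values per peak, 1 for each replicate. The reads behind them also gave the pooled signal that chose the members. Ugalt and CG14100 had pooled ranks 1 and 2, and PNPase and mRpS10 had ranks 10 and 11. Their nearness thus restates these ranks and is a description.

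The Ugalt summit lay just before the gene. Ugalt (FBgn0024994, X, 2701124 to 2703852, minus strand) has 3 transcripts that start at 2 sites, and the pooled summit at 2703897 was 45 bp upstream of the outer site and 152 bp upstream of the inner one. The replicate summits were 45 bp upstream in replicate 1 and 43 bp upstream in replicate 2, with a mean offset of -44 ± 1.41 bp (SD, n = 2; negative is upstream). Both replicates placed the summit outside every transcript of the gene. The peak was 354 bp wide and reached over both TSSs, so that 42.4% of it covered exon and none of it coding sequence.

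Around Ugalt, 7 more summits were ranked and none passed, where 3.26% of all ranked peaks of the pooled list pass. The signals of the 7 ran from 3.93 to 49.6, beside a median of 26.0 over all ranked peaks. At Ugalt the strongest peak was 52.8 times the next one. The gene shares its upstream region with eIF2Bbeta, which encodes a subunit of the exchange factor of translation initiation and is transcribed the opposite way from a TSS 674 bp from the summit. The ranked peak nearest to that TSS had a signal of 35.9 and did not pass, nor did the peak at CG2680 (28.1), whose TSS is 3530 bp away. The next gene, CG2681, had a passing peak of its own with a signal of 114.9, rank 2460, and 57.1 and 61.2 in replicates 1 and 2, 346 bp upstream of its TSS. That peak was the nearest passing neighbour of the Ugalt summit, at 4441 bp.

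The CG14100 summit lay in a short gap between genes. CG14100 (FBgn0036889, 3L, 19589072 to 19590524, minus strand) has 1 transcript, and the pooled summit at 19590612 was 88 bp upstream of its TSS. The replicates gave 91 bp in replicate 1 and 105 bp in replicate 2, a mean of -98 ± 9.90 bp (SD, n = 2). Their summits were 14 bp apart, the widest gap of the 4 members, beside a median of 11 bp in the strongest 10% of peaks and 21 bp in all matched peaks.

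Upstream of CG14100 lies the 3′ end of ash1, a trithorax group gene for a histone methyltransferase, in the same direction of transcription. The gap between the genes is 248 bp, the summit was 161 bp from the end of ash1, and 9 bp of the 335 bp peak reached its last exon. The nearest TSSs of other genes were those of CG9330, 4359 bp away, and CG9231, 4609 bp away, and neither had a passing peak. The 5 other summits ranked at CG14100 had signals of 3.42 to 44.1. The nearest passing peak was 21686 bp away, against a median of 4514 bp over all passing peaks. The gene of the tagged protein, CG11247, is on the same arm at a distance of 2.13 Mb.

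The PNPase summit lay between alternative start sites. PNPase (FBgn0039846, 3R, 31401560 to 31405452, minus strand) has 4 transcripts that start at 3 sites, and the pooled summit at 31404654 was 86 bp upstream of the start of FBtr0300881 and 86 bp downstream of the start shared by FBtr0085812 and FBtr0334553. It fell on the untranslated first exon of the latter, which is 88 bp long, 1 bp from its end, and in intron 1 of FBtr0085811, 798 bp downstream of the outermost TSS. The summits were 86 bp upstream of FBtr0300881 in replicate 1 and 88 bp in replicate 2, a mean of -87 ± 1.41 bp (SD, n = 2). Whether the peak is upstream or downstream of PNPase therefore depends on the transcript, and in replicate 2 the nearest start was that of FBtr0085812, 84 bp away.

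The outermost start of PNPase had no passing peak. The ranked summit nearest to it, 256 bp inside the gene, had a signal of 45.0 in the pooled list and a −log10 IDR of 0.635. That region overlaps Gprk2, which encodes a kinase of G protein-coupled receptors and is transcribed the opposite way. Its 5′ end reaches 208 bp into PNPase, and its TSS was 591 bp from the PNPase summit. The same ranked summit was the nearest to the Gprk2 TSS, 49 bp upstream of it, and did not pass. The 4 ranked summits at PNPase that did not pass had signals of 26.5 to 52.5, and the nearest passing peak was 9254 bp away.

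CG11050 differed from the other members in place. CG11050 (FBgn0031836, 2L, 6611011 to 6617117, plus strand) has 3 transcripts with 3 start sites, and the strongest summit at 6612713 was downstream of all of them, by 1702, 1307 and 1026 bp. It lay in intron 2 of every transcript, which is 140 bp long, 67 bp from its nearer edge. The summit was 1028 bp from the innermost TSS in replicate 1 and 1023 bp in replicate 2, a mean of 1025.5 ± 3.54 bp (SD, n = 2). The peak, 366 bp wide, was broader than the intron, and 53.3% of it covered coding sequence.

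Among the 4476 passing summits on the arms, 2397 were over 500 bp from every coding TSS, and that of CG11050 had the highest signal of these. Such summits made up 32 of the 100 strongest. The next by signal were at Adf1 (1420), 787 bp from the TSS, and at CG32772 (1407), 1262 bp from it. This order rests on the signal that chose CG11050 and is a description.

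CG11050 also had a weak peak at its promoter, the fifth passing peak of the 4 genes. It covered 6610656 to 6610999 on 2L with its summit at an offset of -183 bp from the outermost TSS, and had a pooled signal of 109.9, rank 2504, below the list median of 120.4. In replicate 1 it had a signal of 59.1 and a −log10 IDR of 2.67, and passed. In replicate 2 it had 56.1 and a −log10 IDR of 1.98, just under the limit, and did not pass. The intronic peak was 22.6 times as strong in the pooled list, and its summit was 1885 bp away. The other start sites had no passing peak within 500 bp, and the ranked summit between them had a signal of 30.7.

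No other gene starts within 5 kb of the intronic summit. The next gene upstream, Dpp10, has its 5′ end 11645 bp away. Downstream, DIP-iota ends 16 bp from the end of CG11050, in the opposite direction. The 8 ranked summits of CG11050 that did not pass had signals of 6.74 to 41.5, spread over the gene and its upstream region.

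**Figure D3:**
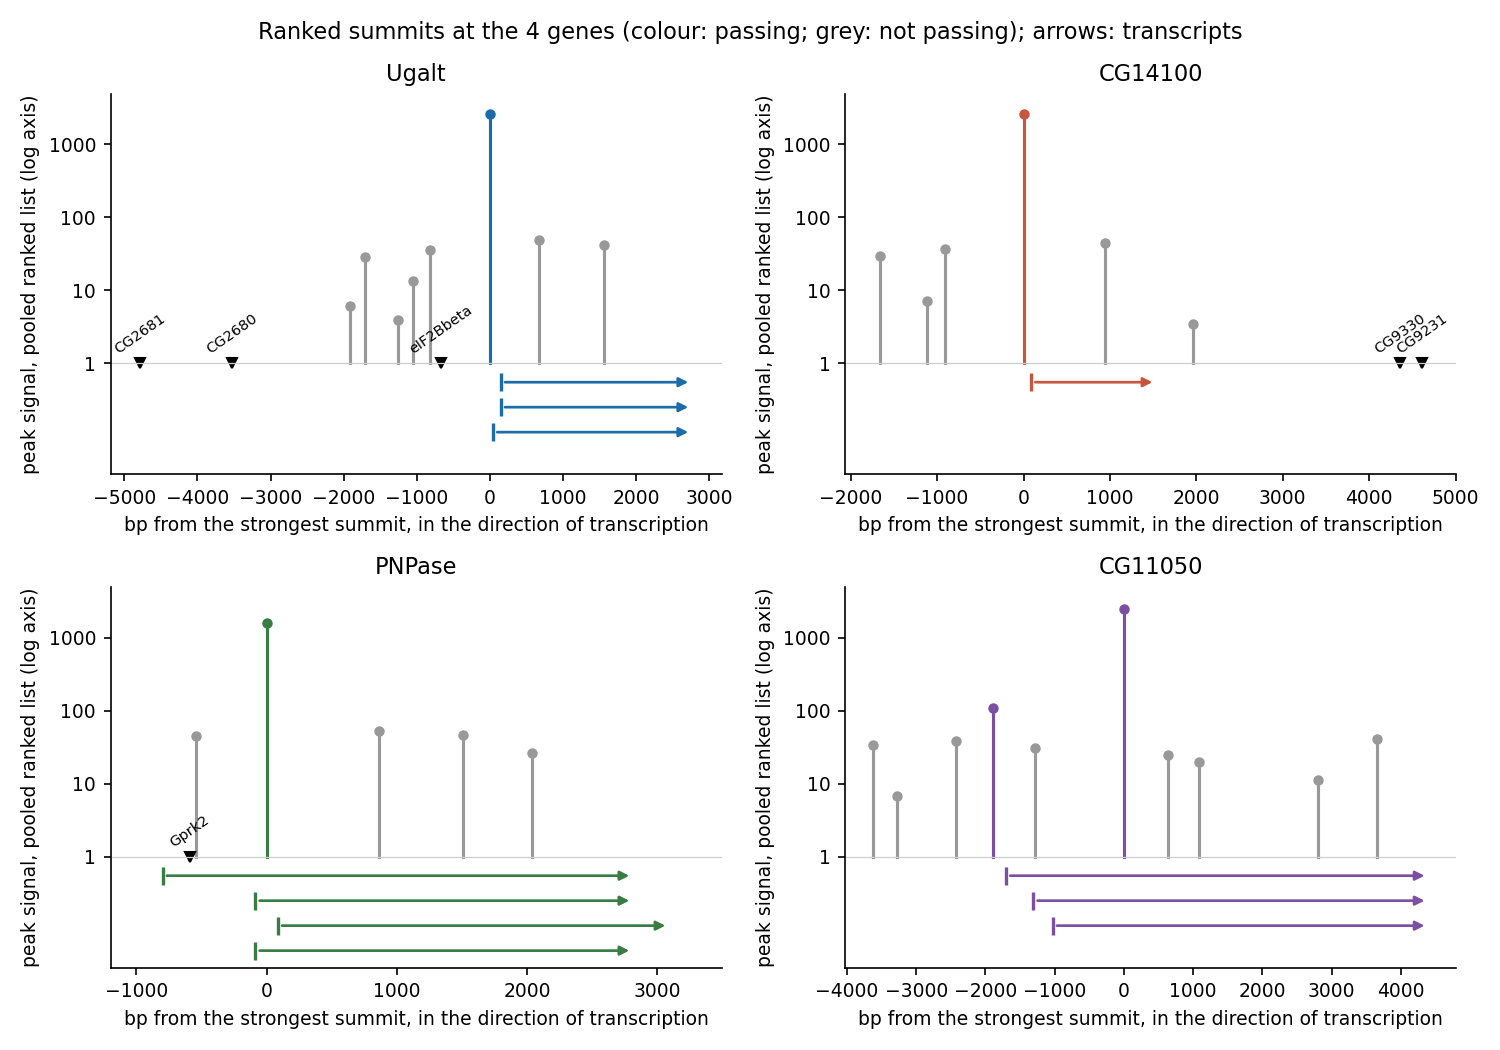
Signal of every ranked summit of the pooled list (log axis) within 2 kb of a TSS or in the body of each gene, by distance from the strongest summit in the direction of transcription (bp), with passing summits in colour, other summits in grey, transcripts as arrows below and starts of neighbouring genes as triangles. Grey summits reach at most 52.5, while the strongest summits stand at 1598 to 2617, and only CG11050 has a further coloured summit, at 109.9.

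Summits repeated closely between replicates. The gap between replicate summits was 2 bp at Ugalt, 2 bp at PNPase, 5 bp at CG11050 and 14 bp at CG14100. In the strongest 10% of matched peaks, 17.4% had a gap of at most 2 bp and 60.2% a gap of at most 14 bp. At each member, the peak of replicate 2 lay wholly within that of replicate 1 and covered 87.0 to 90.8% of it.

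The member peaks were wider than most strong peaks, and those of like signal were of like width. Their widths were 354 bp at Ugalt, 335 bp at CG14100, 315 bp at PNPase and 366 bp at CG11050 in the pooled list. The strongest 10% of matched peaks had a median width of 234 bp, and Ugalt was wider than 98.4% of them, CG14100 than 96.3%, PNPase than 92.0% and CG11050 than 98.7%. The 6 other peaks of the 10 highest, which are nearer to the members in signal, were 293 to 347 bp wide. In replicate 1 the widths of the members, in the order given, were 337, 324, 300 and 350 bp, and in replicate 2 they were 306, 286, 261 and 310 bp. The order of the members by width was the same in each list, and replicate 2 was narrower at all 4. The median width of all passing peaks was 320 bp in replicate 1 and 296 bp in replicate 2. These medians are a single width that recurs within each list. At the 4 genes, every ranked peak that did not pass had exactly that width. Of the 3744 matched peaks, 2850 had exactly the median width of the pooled list. The medians therefore cannot show whether the difference between replicates was particular to the members, and this was not tested. Beside the recurring width of the pooled list, Ugalt and CG11050 were wider, and CG14100 and PNPase were narrower.

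**Figure D4:**
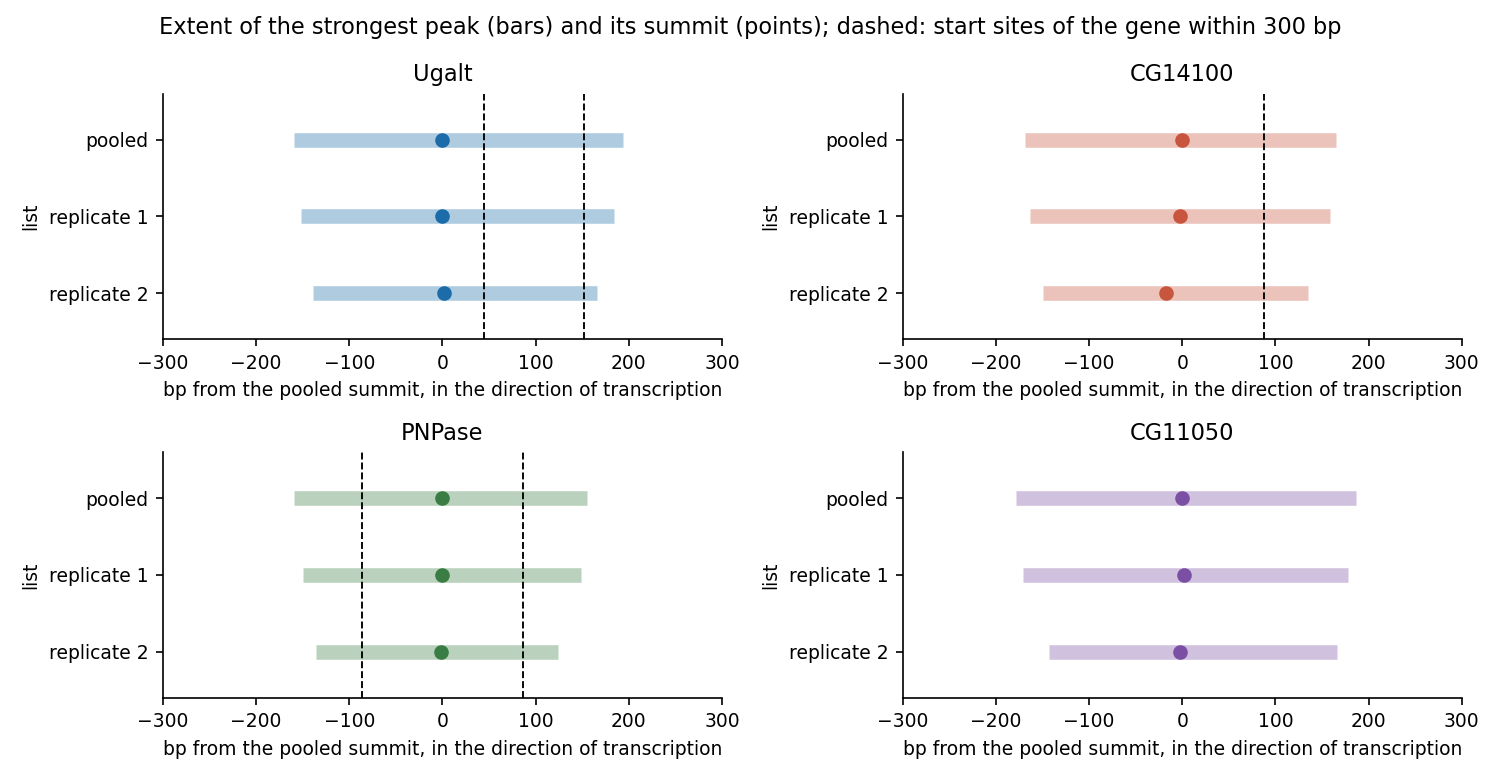
Extent of the strongest peak (bars) and its summit (points) at each gene in the pooled list and in each replicate, by distance from the pooled summit in the direction of transcription (bp), with TSSs of the gene within 300 bp as dashed lines. The summits of Ugalt and CG14100 stand before a TSS, that of PNPase between a pair of TSSs 86 bp to each side, and the CG11050 panel holds no TSS.

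By the rule used for all genes, a gene was called when a passing summit lay within 500 bp of a coding TSS, among genes with any ranked summit there. All 4 members were called in the pooled list, beside 2599 of 10966 genes, or 23.7%. All 4 were called in the list ranked on the true replicates, where the share was 22.2%, and all 4 in replicate 1, where it was 19.3%. In replicate 2 it was 3 of 4, beside 17.4%, and the gene not called was CG11050, whose call rests on the weak promoter peak. The members were selected on the signal of these lists, so nothing is read from these counts against the background.

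Other genes of the same pathways were looked up by the same rule. Of 9 names of transporters that carry nucleotide sugars and related molecules into the secretory pathway, 8 were in the annotation, 7 had a ranked summit near a TSS and 4 were called, Ugalt included, beside 23.7% of all genes. The others were senju, a Golgi transporter of UDP-galactose (247.6), meigo, a transporter of the endoplasmic reticulum (127.4), and nac, which carries GDP-fucose (102.3). Each was below Ugalt, as had to be, because Ugalt was chosen with the highest signal of the pooled list. Ugalt was chosen by its signal, and without it 3 of 6 were called in the pooled list. In replicate 1, 4 of 6 were called beside 19.3% of all genes, or 3 of 5 without Ugalt. In replicate 2 it was 2 of 8, Ugalt and senju, beside 17.4%, or 1 of 7 without Ugalt. The senju summit had an offset of -345 bp from its TSS and was closer to eIF3h, 282 bp from that start, and its peak was 1 of the 8 other passing peaks with the 11 bases shared by Ugalt and CG14100.

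Of 16 genes of mitochondrial RNA synthesis, processing and decay, 15 had a ranked summit near a TSS and 5 were called, beside the same 23.7%. Without PNPase, which was chosen by its signal, 4 of 14 were called. By that signal, which chose it, PNPase was the strongest, followed by SLIRP2 (795.3, rank 69) and SLIRP1 (178.5), whose proteins bind mitochondrial messenger RNA. Suv3, the helicase that works with PNPase in mitochondrial RNA decay, had a signal of 94.8, and mtTFB1, a methyltransferase of mitochondrial ribosomal RNA, had 73.3. Suv3 passed in replicate 2 and not in replicate 1, and mtTFB1 in neither. In replicate 1, 3 of 13 genes were called, or 2 of 12 without PNPase, beside 19.3% of all genes. In replicate 2 it was 4 of 15, or 3 of 14 without PNPase, beside 17.4%.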

How the data were processed

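Peak lists of 2 replicate libraries and of their pooled reads were used as the authors deposited them, on dm6 per the labels. The deposited signal is a score without a fixed range. In the ranked lists the authors also gave a −log10 global IDR per peak. All passing peaks had a −log10 IDR of at least 2 (IDR 0.01). The sources used here do not name the aligner or the caller. Read counts were not used, so the depth behind each value is unknown. The unnamed per-replicate columns of the deposited ranked lists were left out, and the signal of a replicate came from its own lists, where the design had named those columns. The authors' thresholded lists lack some ranked peaks past the limit, and no ranked peak was added to them.

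Summits were the peak start plus the deposited summit offset, written from base 1. Genes came from Ensembl release 115 and sequence from RefSeq on FlyBase release 6, and 17679 of 17682 genes matched by symbol and arm had the same span in both. Only 2L, 2R, 3L, 3R, 4 and X were used for genes and motifs. Peaks of different lists were matched by summits within 100 bp. Distances, gene calls and the search for the longest shared run were tested on simulated data before use (python 3.11.15, numpy 2.4.6, pandas 2.3.3, matplotlib 3.10.9). The motif search and the counts of short words were not tested in this way. The members, gene lists, motifs and windows were chosen with earlier results of these data known. No test was made, because the members were selected on the readout and 1 group has no contrast. The genes named are the members, every gene with a TSS within 5 kb of a strongest summit, called genes of the pathway lists, the 3 peaks nearest to each member in log2 signal, and the peaks at the limit of 10. Other peaks and flanking genes (mRpL41, CG7601, Tcs5, Adf1, CG32772, ash1, Dpp10, DIP-iota, eIF3h) were named after their values were seen. The search for the longest shared run, 7-base words, and distances between passing peaks and from TSSs were added after seeing the data.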

Additional observations from a re-analysis of the deposited data

How the results depend on the processing

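Each of 20 results was recomputed under its alternatives, 80 in all, and 70 stayed within the replicate spread or, for counts, within 1.5 times the main value. Alternatives were the list ranked on the true replicates, each replicate by itself, the upper 50% of peaks by signal, distances of 200 to 2000 bp, all transcripts, other overlaps and a 50 bp window. Some could not move. The upper 50% and the list ranked on the true replicates hold the same pooled summits, so offsets stay there, and ranks stay in the upper 50%. The replicate spread came from the same 2 replicate values that it judged. The count of 70 is therefore no measure of robustness. In the 50 bp window 1 of the 14 motif words was held by a member in place of 2, and GCCAT was in 0 members in place of 1. The longest run of Ugalt and CG14100 was 7 bases in place of 11, since the run lies over 50 bp from both summits. That of PNPase and CG11050 was 8 bases in place of 11, since the CG11050 copy lies over 50 bp from its summit. This loss is within 1.5 times and is counted among the 70. The search for shared runs was added after seeing the data. With each replicate left out, the rank was 1 to 2 for Ugalt and 3 to 4 for CG11050, and the offset was -45 to -43 bp for Ugalt, -105 to -91 bp for CG14100 and -88 to -86 bp for PNPase. The transporter list had 2 to 4 called genes (2 without replicate 1) and the mitochondrial RNA list 3 to 4 (3 without replicate 2), against 4 and 5. The cause of these moves was not tested. No paired analysis was possible because there is 1 group and no contrast. With 2 replicates a spread is known only roughly, and without read counts no counting error can be given.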

Other observations

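The peaks other than those of Ugalt and CG14100 that hold CATGGGCGTAG on either strand within 100 bp of the summit ranged from rank 6 to rank 2171 of the pooled list. The highest was 98 bp upstream of Tcs5 (signal 1784), and the next was at rank 443. Ugalt and CG14100 hold the run by the way it was picked. Among the 10 highest peaks only that of Tcs5 is thus a further case. The others with a TSS within 500 bp were at P5cr (324.1), eIF3h and senju (247.6), Mal-A5 (224.1) and Coq3 (175.9), and 3 lay further from a coding TSS. These peaks were found from the run and were not tested.

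Words of 8 bases found at 25 or more of the 500 strongest passing peaks were ordered by the ratio of their share to that in flanking windows, with 1 added to the count of flanking windows. The first 4 all held ACAGTG on either strand, with CACAGTGG at 7.2% of the peaks and 0.8% of flanking windows. Each of the 4 words was at 6.2 to 7.4% of the 500 peaks. None of the 4 members, which are among these peaks, held any of the 4 words within the same 100 bp to each side of the summit. With shares this low, their absence from 4 peaks says little. The next word in this order, TAAAATTA, was at 6.8% of the peaks and in 1 member. These words were looked up after seeing the data and were not tested.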
